A study of Mus musculus with 18 samples.

Results

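The comparison described here is that of 3 arrays of Cebpa d/d mice with 3 arrays of control mice, all taken 72 hr after naphthalene, 6 arrays of the 18 in the series. Members were chosen by array title, and the calls are given with all arrays and without the array titled 72hr_KO1 (Cebpa d/d replicate 1), which stood apart from its group and whose removal left 5 arrays. RNA was described as coming from terminal bronchiolar epithelial cells of lung, though genes of other cells gave signal too. The strain of both genotypes was a mixture of FVB/N with C57BL/6. The other 12 arrays, 3 of each genotype at 0 hr and 3 of each at 3 hr, entered through the shared estimate of the spread and the tests of whether the genotype difference changed with time. The labels do not state age, sex or naphthalene dose. They also do not say which part of Cebpa the d/d allele alters, in which cells or at what age, or whether the replicates of a group are separate animals. The p-values thus reflect only how much these samples varied, and that variation may be technical.

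Cebpa encodes C/EBP alpha, a basic leucine zipper transcription factor that binds DNA as a dimer and promotes the differentiation of lung epithelium, liver and fat. Naphthalene is made toxic by cytochrome P450 Cyp2f2 in club cells, the secretory cells of the small airways, which die and slough off and are later replaced by dividing survivors. During repair the airway makes proteases that remodel it and inhibitors that restrain them, and the study was concerned with that balance.

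The level of an array is the log2 signal after robust multi-array averaging (RMA), so a difference of 1 is a change of 2-fold. Cebpa itself was read first, because it checks the labels. Its log2 level was 9.69, 9.80 and 9.87 in the control arrays. In Cebpa d/d replicates 1, 2 and 3 it was 9.07, 8.55 and 7.90. The groups did not overlap, and replicate 1 lay nearest to control. The log2 difference was -1.28 ± 0.42 (SE, 3 against 3 arrays; limma adjusted p = 0.609), and without replicate 1 it was -1.56 ± 0.45 (adjusted p = 0.663), so neither passed. The array labelled control 0 hr replicate 1 had 7.89, against its label, and it enters here only through the shared spread. Without it the same difference of -1.28 passed (adjusted p = 0.0144). That array was singled out by its Cebpa level, so leaving it out narrows the spread of Cebpa and the pass adds no support. The related Cebpb (0.08 ± 0.12, adjusted p = 0.943) and Cebpd (-0.10 ± 0.24, adjusted p = 0.97) did not pass, nor did Cebpg (0.48 ± 0.13, adjusted p = 0.436).

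Medians over all probe sets lay between 6.48 and 6.65 in the 18 arrays. The club cell transcripts Scgb1a1 (12.55 to 12.79) and Cyp2f2 (12.41 to 13.11) were among the brightest in all 6 arrays at 72 hr, and the ciliated cell factor Foxj1 lay at 7.51 to 7.75. The alveolar type 2 gene Sftpc lay at 13.04 to 13.31 in the same arrays. Cebpa d/d replicate 1 correlated with the others of its group at 0.986 and 0.988, which correlated with each other at 0.995. In 197 genes it lay more than 1 log2 unit from their mean, against 18 to 65 genes in each other array at 72 hr. Over the other 17 arrays of the series the number was 18 to 193, the highest being that of control 0 hr replicate 1.

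With all arrays, 14 of 19938 genes passed at an adjusted p under 0.05, a share of 0.0702%. In Cebpa d/d, 12 of them were lower and 2 higher. Without Cebpa d/d replicate 1, 16 passed (0.0802%), 4 higher and 12 lower. With each array centred on its median, that count was 13, with 1 higher and 12 lower. Both fits shared 12 genes. Pigr and Cntnap2 were higher in both, and Spink5, Sectm1b, Ccdc89, Cd7, Fggy, S100g, H3c15, Orm2, Bex2 and Chia1 were lower in both. Tmem243 and Phex passed only with all arrays, and Mgst2, Aox3, Fam78b and Capn6 only without replicate 1. In each fit, all the genes that passed had groups of arrays that did not overlap. Unadjusted, 1259 genes with all arrays and 798 without replicate 1 had a p under 0.05.

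**Figure D1:**
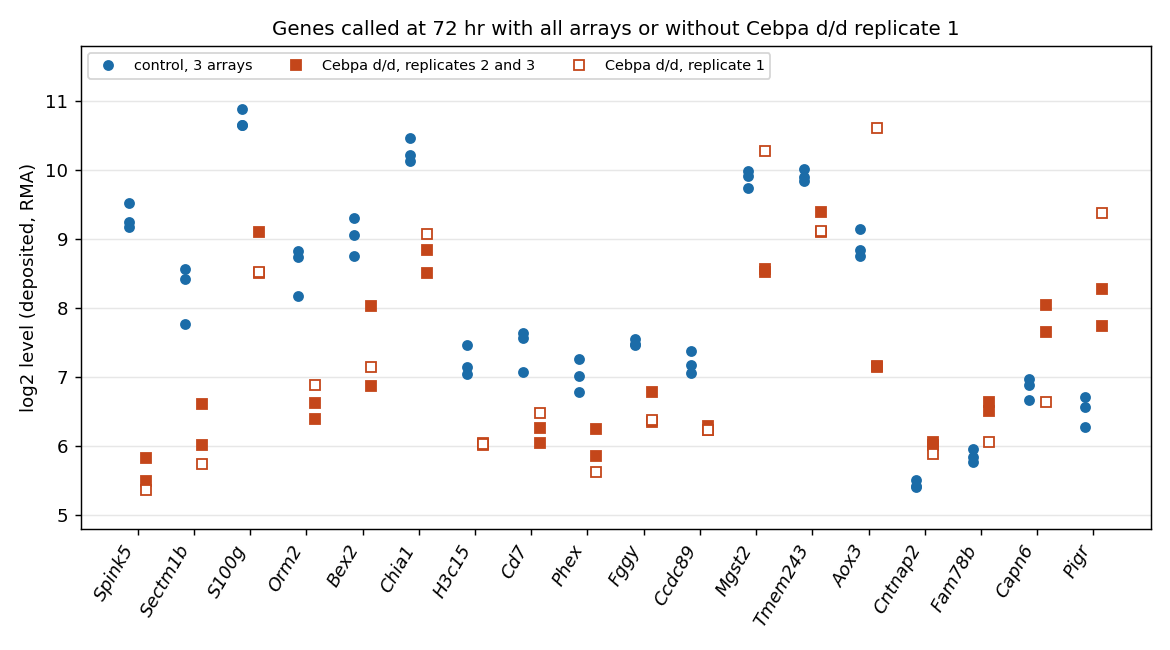
Log2 level (vertical axis) at 72 hr of the 18 genes that passed in either fit, ordered by their difference with all arrays. Circles are the 3 control arrays, filled squares Cebpa d/d replicates 2 and 3, and open squares replicate 1, which lies above the control arrays in Aox3 and Mgst2 but with its group in Spink5 and S100g.

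Spink5 encodes LEKTI, a secreted inhibitor with many Kazal-type domains that blocks kallikrein serine proteases of epithelia. Its log2 level was 9.25, 9.17 and 9.53 in control arrays and 5.37, 5.50 and 5.83 in Cebpa d/d arrays. The lowest control array thus lay far above the highest Cebpa d/d array, and replicate 1 did not stand apart. Spink5 was lower by -3.75 ± 0.15 (adjusted p = 1.92e-10), a 13.4-fold difference in signal, and by -3.65 ± 0.16 without replicate 1 (adjusted p = 3.17e-09). The Cebpa d/d levels lay below the median of every array, where array signal compresses folds, so the fold may be understated. At 0 and 3 hr its level was 5.39 to 5.96 in control and 5.30 to 5.66 in Cebpa d/d. The Cebpa d/d arrays at 72 hr therefore lay close to the levels seen at the earlier times in either genotype.

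Of 10 measured Kazal inhibitor genes, Spink5 was the 1 that passed. Spink10 had a difference of -0.53 ± 0.12 (adjusted p = 0.179) and Spink12 one of 0.15 ± 0.11 (adjusted p = 0.857). None of 17 measured genes of the kallikrein and LEKTI list passed, and their median difference was 0.12 (0.05 without replicate 1), beside 0.02 over all genes in either fit. The proteases that LEKTI is known to inhibit did not pass: Klk5 differed by 0.14 ± 0.10 (adjusted p = 0.858), Klk7 by 0.12 ± 0.17 (adjusted p = 0.933) and Klk14 by 0.04 ± 0.10 (adjusted p = 0.962). Their levels of 5.13 to 6.65 were in the lower part of the scale. Tslp, a cytokine released by skin when LEKTI is lost, differed by -0.12 ± 0.21 (adjusted p = 0.944).

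Other inhibitors had no gene that passed, with 0 of 23 serpins and 0 of 24 WAP, Kunitz, cystatin and TIMP genes in either fit. Slpi, an inhibitor of neutrophil elastase, lay at 7.92 or above in the control arrays and at 6.98, 7.62 and 7.25 in Cebpa d/d arrays. These groups did not overlap, and the difference was -0.68 ± 0.26 (adjusted p = 0.741). Serpinb12 was 5.46, 6.20 and 5.34 in control and 4.14, 5.04 and 4.52 in Cebpa d/d (-1.10 ± 0.21, adjusted p = 0.0827). With array weights it passed (limma adjusted p = 0.0104). It also passed without Cebpa d/d replicate 2, its highest Cebpa d/d array (-1.34, adjusted p = 0.0134). This was the 1 pass in 18 fits that each left out 1 array (limma adjusted p up to 0.374). The array left out lay nearest to the other group, so the pass adds no support. The broad protease inhibitor gene A2m went the other way in replicates 2 and 3, at 6.44 and 7.28 against 5.71 to 6.01 in control (1.04 ± 0.19 without replicate 1, adjusted p = 0.0725). On the protease side, 0 of 15 cathepsin and legumain genes, 0 of 25 metalloproteases, 0 of 23 membrane and secreted serine proteases and 0 of 14 leukocyte serine proteases passed in either fit. Ctsc, which activates leukocyte serine proteases, differed by -0.72 ± 0.18 (adjusted p = 0.234).

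Sectm1b and Cd7 are neighbouring genes on chromosome 11 in the RefSeq gene table. SECTM1 proteins are ligands of CD7, a receptor of T and NK cells. Sectm1b was 8.42, 8.57 and 7.77 in control and 5.75, 6.02 and 6.61 in Cebpa d/d arrays. It was lower by -2.12 ± 0.25 (adjusted p = 0.00204), or 4.36-fold, and by -1.93 ± 0.27 without replicate 1 (adjusted p = 0.00872). Cd7 was 7.57, 7.64 and 7.08 in control and 6.48, 6.05 and 6.27 in Cebpa d/d, with a difference of -1.17 ± 0.15 (adjusted p = 0.00262) that was -1.27 ± 0.16 without replicate 1 (adjusted p = 0.00603). Control replicate 3 was the lowest control array in both genes. The third gene of the group, Sectm1a, which lies beside Sectm1b, was 6.43, 6.67 and 5.90 in control and 5.37, 5.66 and 5.85 in Cebpa d/d. Its groups came close without overlapping, and its difference of -0.71 ± 0.17 did not pass (adjusted p = 0.222). It passed without control replicate 3, its lowest control array (-0.93, adjusted p = 0.022). This was the 1 pass in 18 fits that each left out 1 array (limma adjusted p up to 0.986). The array left out lay nearest to the other group, so the pass adds no support. Among 23 T and NK cell markers, Cd7 was the 1 that passed, and the list had a median difference of 0.11.

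Orm2 encodes an alpha-1-acid glycoprotein, an acute phase plasma protein. It was 8.74, 8.84 and 8.18 in control and 6.89, 6.63 and 6.40 in Cebpa d/d arrays, lower by -1.94 ± 0.27 (adjusted p = 0.00412), and by -2.07 ± 0.30 without replicate 1 (adjusted p = 0.011). Its relatives Orm1 and Orm3 are alike in sequence, so the 3 may not be measured apart. Orm1 was 9.41, 9.84 and 9.32 in control and 6.65, 8.24 and 7.64 in Cebpa d/d, with a wide spread (-2.02 ± 0.58, adjusted p = 0.471). Orm3 had -0.70 ± 0.21 (adjusted p = 0.526). Of 24 acute phase genes Orm2 was the 1 that passed, and the list's median was -0.12 in both fits. Hp, the haemoglobin-binding protein haptoglobin, lay at 12.52 to 13.02 in all 6 arrays (0.26 ± 0.14, adjusted p = 0.814).

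S100g encodes calbindin D9k, a small calcium-binding protein that is also used as a marker of alveolar type 2 cells. It was 10.65, 10.88 and 10.66 in control and 8.52, 9.11 and 8.51 in Cebpa d/d arrays. It was lower by -2.02 ± 0.26 (adjusted p = 0.00262), or 4.06-fold, and by -1.93 ± 0.30 without replicate 1 (adjusted p = 0.015). The other 15 of 16 S100 genes did not pass. Chia1, an acidic chitinase of airway and stomach, was 10.46, 10.21 and 10.14 in control and 9.07, 8.51 and 8.85 in Cebpa d/d, with a difference of -1.46 ± 0.21 (adjusted p = 0.00648) and -1.59 ± 0.23 without replicate 1 (adjusted p = 0.011). It missed the threshold without control replicate 1 (-1.36, adjusted p = 0.0508). Bex2, a small protein linked to growth factor signalling, was 9.31, 8.75 and 9.06 in control and 7.15, 8.04 and 6.88 in Cebpa d/d (-1.68 ± 0.23, adjusted p = 0.00412, and -1.58 ± 0.26 without replicate 1, adjusted p = 0.0283). Its relatives Bex1 (0.62 ± 0.15, adjusted p = 0.222) and Bex4 (0.52 ± 0.23, adjusted p = 0.779) had differences above 0 that did not pass.

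Promoters of 6 genes are shown so that the letters of the C/EBP core can be seen beside the levels. Sectm1b, Orm2 and S100g were lower and had matches, Chia1 was lower and had none, Pigr was higher and had none, and Capn6, higher only without replicate 1, had a match. They come from RefSeq (GRCm38.p6), run from 250 bases before to 50 bases after the annotated start on the gene's strand, and carry matches to TTNNGNAA or its reverse complement TTNCNNAA in capitals. Sectm1b (chr11:121063520-121063819, minus strand) had 1 match, Orm2 (chr4:63362199-63362498, plus strand) had 2, and S100g (chrX:162964550-162964849, minus strand) had 5, of which 2 overlapped. Pigr (chr1:130826434-130826733, plus strand) and Chia1 (chr3:106113132-106113431, plus strand) had 0, and Capn6 (chrX:143827363-143827662, minus strand) had 1.
Sectm1b promoter: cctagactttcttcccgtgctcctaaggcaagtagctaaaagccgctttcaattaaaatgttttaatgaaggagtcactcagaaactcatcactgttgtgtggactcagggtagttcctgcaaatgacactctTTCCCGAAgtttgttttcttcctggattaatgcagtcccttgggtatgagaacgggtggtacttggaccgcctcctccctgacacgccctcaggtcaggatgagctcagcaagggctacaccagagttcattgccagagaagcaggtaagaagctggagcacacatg
Orm2 promoter: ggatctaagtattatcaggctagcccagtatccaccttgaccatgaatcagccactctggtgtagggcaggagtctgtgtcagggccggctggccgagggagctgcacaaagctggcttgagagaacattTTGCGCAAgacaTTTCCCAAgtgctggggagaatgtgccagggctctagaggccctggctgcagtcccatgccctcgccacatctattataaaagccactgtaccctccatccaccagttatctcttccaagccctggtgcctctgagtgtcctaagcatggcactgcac
S100g promoter: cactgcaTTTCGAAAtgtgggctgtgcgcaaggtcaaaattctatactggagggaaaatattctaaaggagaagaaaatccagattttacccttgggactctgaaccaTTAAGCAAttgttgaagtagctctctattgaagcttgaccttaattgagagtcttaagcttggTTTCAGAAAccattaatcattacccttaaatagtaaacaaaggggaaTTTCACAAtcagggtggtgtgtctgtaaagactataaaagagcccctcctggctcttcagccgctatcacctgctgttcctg
Chia1 promoter: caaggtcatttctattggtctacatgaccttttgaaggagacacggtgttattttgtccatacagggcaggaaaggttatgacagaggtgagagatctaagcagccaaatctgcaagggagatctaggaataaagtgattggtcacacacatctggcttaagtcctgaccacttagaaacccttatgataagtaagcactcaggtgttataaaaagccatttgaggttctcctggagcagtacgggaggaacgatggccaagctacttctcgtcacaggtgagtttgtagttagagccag
Capn6 promoter: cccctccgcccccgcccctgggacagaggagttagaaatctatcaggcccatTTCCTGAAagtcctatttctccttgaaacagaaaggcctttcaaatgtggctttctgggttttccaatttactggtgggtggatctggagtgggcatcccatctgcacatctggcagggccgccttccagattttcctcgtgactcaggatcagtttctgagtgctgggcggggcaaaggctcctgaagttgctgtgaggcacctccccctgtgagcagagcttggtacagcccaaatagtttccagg
Pigr promoter: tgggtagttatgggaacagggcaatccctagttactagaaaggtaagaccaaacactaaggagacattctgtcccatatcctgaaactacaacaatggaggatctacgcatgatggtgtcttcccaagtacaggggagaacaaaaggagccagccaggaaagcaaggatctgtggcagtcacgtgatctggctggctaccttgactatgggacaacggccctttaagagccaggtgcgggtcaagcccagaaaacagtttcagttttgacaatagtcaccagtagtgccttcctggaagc
The RefSeq table held windows for 15 of the 18 genes that passed in either fit, and had none for Cd7, Fam78b and Spink5. Of the 15 genes, 11 had at least 1 match in a window (73.3%), beside 6267 of 15614 measured genes with a window (40.1%). By direction, 9 of the 12 lower genes and 2 of the 3 higher genes had one, so matches lay in both. Counted by window in place of gene, 76.5% of windows of these genes held a match. The share was 36.0% over windows of measured genes and 40.7% over all windows in the table. A match says only that these letters are in the window, and binding was not measured.

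Ccdc89, Fggy and H3c15 were the remaining genes lower in both fits. Ccdc89, a coiled-coil protein, was 7.06 to 7.39 in control and 6.24 to 6.30 in Cebpa d/d (-0.95 ± 0.12, adjusted p = 0.00262, and -0.94 ± 0.14 without replicate 1, adjusted p = 0.011). Fggy, a carbohydrate kinase, was 7.46 to 7.55 in control and 6.35 to 6.78 in Cebpa d/d (-0.997 ± 0.13, adjusted p = 0.00262, and -0.94 ± 0.14 without replicate 1, adjusted p = 0.0147). Fggy has 5 probe sets, with differences from 0.15 to -1.34, and only the brightest, on which these values rest, passed over all probe sets (adjusted p = 0.0151). With the mean of its probe sets in their place, the Fggy call ended in both fits (-0.70, adjusted p = 0.0645, and -0.74 without replicate 1, adjusted p = 0.138). H3c15, a histone H3 gene, was 7.15, 7.05 and 7.47 in control and 6.04, 6.05 and 6.02 in Cebpa d/d (-1.19 ± 0.16, adjusted p = 0.00262, and -1.19 ± 0.18 without replicate 1, adjusted p = 0.0136). Histone genes exist in near-identical copies that probes may not separate, which makes the value of H3c15 uncertain. It was the 1 of 18 measured histone genes that passed. Another, H2bc14, had a difference of -0.40 ± 0.16 (adjusted p = 0.741).

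Tmem243 was 9.84 to 10.02 in control and 9.10 to 9.39 in Cebpa d/d (-0.72 ± 0.12, adjusted p = 0.0252). Phex, a membrane endopeptidase known from bone, was 6.79 to 7.26 in control and 5.62 to 6.25 in Cebpa d/d (-1.12 ± 0.19, adjusted p = 0.0301). Without replicate 1 these differences were -0.68 (adjusted p = 0.147) and -0.97 (adjusted p = 0.175), so both calls ended. Tmem243 lost its call without 5 single arrays in turn and Phex without 7.

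Pigr, the receptor that carries IgA and IgM across epithelia, was 6.29, 6.57 and 6.71 in control and 9.38, 7.75 and 8.28 in Cebpa d/d arrays. Replicate 1 was the highest, and the groups did not overlap. Pigr was higher by 1.95 ± 0.29 (adjusted p = 0.0074) with all arrays and by 1.49 ± 0.21 without replicate 1 (adjusted p = 0.00932), or 2.82-fold. It missed the threshold without control replicate 1 (adjusted p = 0.0538). At 0 and 3 hr Pigr lay at 8.73 to 9.77 in control and 9.20 to 9.73 in Cebpa d/d arrays. The control arrays at 72 hr lay below all of those, and Cebpa d/d replicates 2 and 3 lay between.

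Pigr was the 1 of 22 IgA transport and mucous cell genes that passed, and the list's median difference was 0.21, or 0.15 without replicate 1. Its arrays did not overlap in 7 genes on the higher side and 2 on the lower. Over all genes, 8.89% did not overlap on the higher side and 6.19% on the lower, and without replicate 1, when only 2 arrays are left in the group, 13.9% and 11.3%. The mucin gene Muc1 was 10.38 to 10.52 in control and 10.82 to 11.27 in Cebpa d/d (0.62 ± 0.15, adjusted p = 0.233). Spdef, a factor of mucous cell fate, differed by 0.31 ± 0.10 (adjusted p = 0.652), and Muc5ac by 0.29 ± 0.11 (adjusted p = 0.728). Cntnap2, a neuronal adhesion molecule, was higher by 0.54 ± 0.09 (adjusted p = 0.0133), and by 0.59 ± 0.09 without replicate 1 (adjusted p = 0.0196), at levels of 5.41 to 5.51 in control and 5.90 to 6.06 in Cebpa d/d, and lost its call without 4 single arrays in turn. It also lost it with each array centred on its median, in both fits (adjusted p = 0.0999 and 0.0873).

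**Figure D2:**
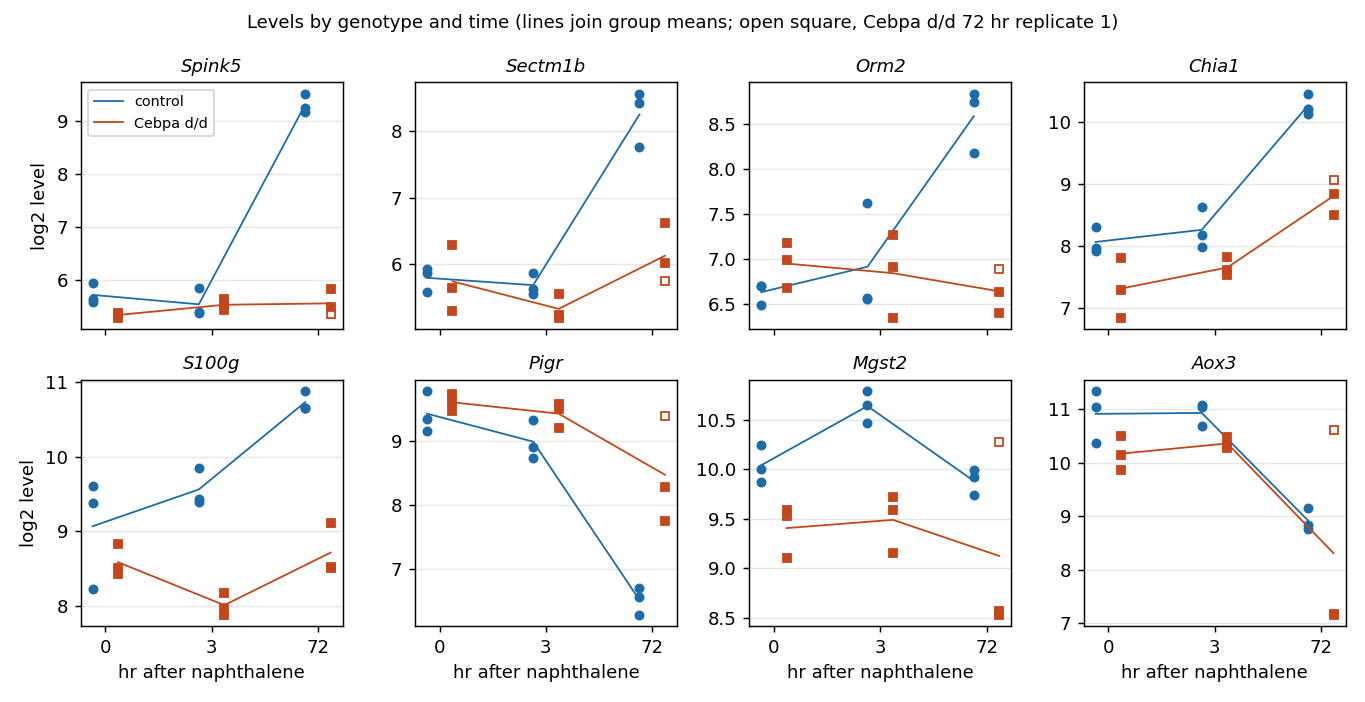
Log2 level (vertical axis, its range set per gene) of 8 genes at 0, 3 and 72 hr after naphthalene, with the times evenly spaced and not to scale. Circles are control and squares Cebpa d/d arrays, lines join group means of 3 arrays, and the open square is Cebpa d/d 72 hr replicate 1. Spink5, Sectm1b and Orm2 part between the genotypes at 72 hr, S100g lies lower in Cebpa d/d from 3 hr, and the open square of Aox3 (10.61) lies at the level of the earlier times.

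None of the 14 genes passed between the genotypes at 0 or at 3 hr. Whether the genotype difference itself changed was tested in the same model. The difference at 72 hr differed from that at 0 hr in 19 genes (0.0953%), of which 5 were among the 14. Spink5 had a change of -3.37 ± 0.21 (adjusted p = 2.57e-07), Orm2 one of -2.26 ± 0.38 (adjusted p = 0.0273) and Sectm1b one of -2.07 ± 0.35 (adjusted p = 0.0273). H3c15 had -1.47 ± 0.22 (adjusted p = 0.0246) and Cd7 -1.19 ± 0.21 (adjusted p = 0.0396). Against 3 hr, 2 genes passed (0.0100%), and Spink5 was the 1 among the 14 (-3.74 ± 0.21, adjusted p = 4.99e-08). The remaining calls were Rwdd2a against 3 hr and 14 genes against 0 hr, all named after their values were seen. The 14 were Actn2, Csrp3, Eno3, Lmod2, Mybphl, Myl3, Myom1, Pgam2, Tcap, Tecrl, Tmod1, Ttn, Txlnb and Xirp2. These 14 had passed at 0 hr, with higher levels in Cebpa d/d, and did not pass at 72 hr. Actn2, Csrp3, Myl3, Tcap and Ttn are on the list of 32 cardiac muscle genes. The mean level of that list at 0 hr was 8.51 to 9.36 in Cebpa d/d and 6.56 to 7.78 in control. At 72 hr it was 6.59 to 6.78 and 6.56 to 6.81.

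Sectm1b lay at 5.56 to 5.93 in the control arrays of 0 and 3 hr, Cd7 at 6.13 to 6.52 and Orm2 at 6.49 to 7.62. In Cebpa d/d arrays of those times they lay at 5.20 to 6.29, 6.19 to 6.52 and 6.35 to 7.27. In these genes, as in Spink5, the control arrays of 72 hr lay above all arrays of the earlier times. Without Cebpa d/d 72 hr replicate 1, Spink5 kept its call against 0 hr (-3.27, adjusted p = 1.37e-06) and 3 hr (-3.64, adjusted p = 2.78e-07). The other 4 then missed it against 0 hr, with adjusted p from 0.0718 to 0.0879. The array labelled control 0 hr replicate 1, whose Cebpa level goes against its label, is part of the 0 hr contrast. Without it 3 genes passed against 0 hr, among them Spink5 (-3.30, adjusted p = 1.81e-06), and the same 4 missed, with adjusted p from 0.0583 to 0.0808.

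In the rest of the 14 genes no change with time passed. S100g had a difference of -1.55 ± 0.26 at 3 hr that did not pass (adjusted p = 0.103), and its arrays lay at 9.40 to 9.85 in control and 7.87 to 8.17 in Cebpa d/d. Bex2 differed by -1.05 ± 0.23 at 0 hr (adjusted p = 0.0786), and Chia1 by -0.75 ± 0.21 (adjusted p = 0.215). Xist, a transcript of the inactive X chromosome that was also chosen after its values were seen, lay at 10.07 to 10.26 in all 6 arrays at 72 hr, while each group at 0 and 3 hr held arrays near 5 and near 10. The part of this in the tests against those times was not tested.

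Leaving out Cebpa d/d replicate 1 added 4 genes, in all of which that array lay towards or beyond the control arrays. Aox3, an aldehyde oxidase found in club cells, was 9.15, 8.76 and 8.84 in control and 10.61, 7.16 and 7.15 in Cebpa d/d arrays. Replicate 1 lay above all control arrays and the others below them. Without it Aox3 was lower by -1.76 ± 0.23 (adjusted p = 0.00603), or 3.39-fold, and with it the difference was -0.61 ± 0.60 (adjusted p = 0.9). Mgst2, a microsomal glutathione transferase, was 9.92, 9.99 and 9.74 in control and 10.27, 8.53 and 8.57 in Cebpa d/d. It was lower by -1.33 ± 0.17 without replicate 1 (adjusted p = 0.00603), against -0.76 ± 0.32 with it (adjusted p = 0.754). At 0 and 3 hr Mgst2 lay at 9.88 to 10.79 in control and 9.11 to 9.72 in Cebpa d/d, which did not overlap, and no test at those times passed (adjusted p = 0.617 and 0.685).

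Capn6, a member of the calpain family, was 6.89, 6.67 and 6.98 in control and 6.64, 7.66 and 8.05 in Cebpa d/d (1.01 ± 0.17 without replicate 1, adjusted p = 0.0305). Fam78b was 5.77 to 5.96 in control and 6.07, 6.51 and 6.64 in Cebpa d/d (0.71 ± 0.12 without replicate 1, adjusted p = 0.0305). With all arrays their differences were 0.60 (adjusted p = 0.75) and 0.55 (adjusted p = 0.234). With each array centred on its median, both also missed the threshold without replicate 1 (adjusted p = 0.0631 for Capn6 and 0.0767 for Fam78b). With 2 Cebpa d/d arrays left, these calls rest on few samples: only Spink5 of the 16 genes kept its call when any further array at 72 hr was left out.

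The genes in which Cebpa d/d replicate 1 lay more than 1 log2 unit beyond both other arrays of its group numbered 59 above and 66 below. The genes named next are from these, were chosen after their values were seen, and only describe the array. Pon1, a lactonase made by club cells, was 8.82 in replicate 1, 4.48 and 4.92 in replicates 2 and 3, 5.47 to 5.87 in control at 72 hr and 8.57 to 9.05 in Cebpa d/d at 0 hr. The secretoglobin gene Scgb1c1 was 10.84 in replicate 1 against 7.44 and 7.27, with 10.31 to 10.51 in Cebpa d/d at 0 hr. Psca, a surface protein, was 5.32 in replicate 1 against 8.34 and 8.10 in the others and 8.57 to 8.93 in control, with 5.18 to 5.52 in Cebpa d/d at 0 hr. Hbegf, a ligand of the EGF receptor, was 7.17 against 9.11 and 9.09, with 7.76 to 8.14 in Cebpa d/d at 0 hr. The matrix gene Fn1 was 9.18 against 10.86 and 10.74, with 9.45 to 10.04 in Cebpa d/d at 0 hr. In both, replicate 1 lay below that 0 hr range. The macrophage gene Vsig4 was 5.02 against 8.13 and 7.69, with 4.99 to 7.50 in Cebpa d/d at 0 hr. Some genes were far from the 0 hr level. Ccna1 was 8.26 in replicate 1 against 5.84 to 6.27 in Cebpa d/d at 0 hr, and AI506816 5.54 against 8.86 to 8.99. Of the 59 and 66 genes, replicate 1 lay nearer to the Cebpa d/d 0 hr mean than to that of replicates 2 and 3 in 56 and 65. The genes were picked because replicate 1 lay far from replicates 2 and 3, which favours such counts. The share over all genes was not counted.

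**Figure D3:**
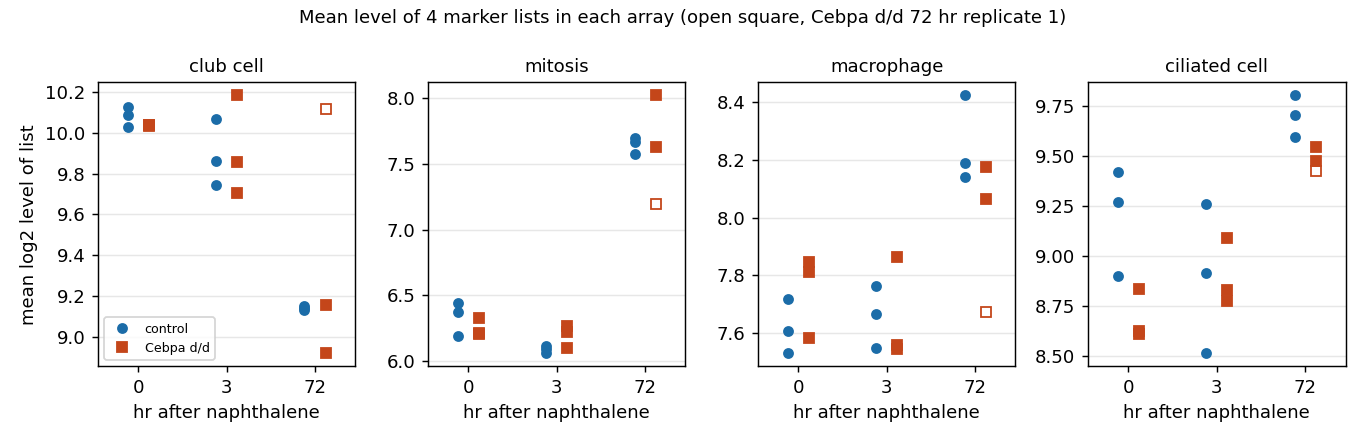
Mean log2 level (vertical axis, its range set per panel) of the measured members of 4 marker lists in each of the 18 arrays, by time with the times evenly spaced and not to scale. The open square, Cebpa d/d 72 hr replicate 1, lies with the 0 hr arrays for club cell genes (10.12), below the other 72 hr arrays for mitosis genes (7.19), and lowest of the 72 hr arrays for ciliated cell genes (9.43).

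The mean level of 25 club cell genes was 10.12 in replicate 1, 8.92 and 9.16 in replicates 2 and 3, 9.13 to 9.15 in control at 72 hr and 10.03 to 10.13 in control at 0 hr. For 37 mitosis genes it was 7.19 in replicate 1, 8.02 and 7.63 in replicates 2 and 3, 7.58 to 7.70 in control at 72 hr and 6.19 to 6.44 in control at 0 hr. By these list means the array lay at the 0 hr level in club cell genes and between the 0 and 72 hr levels in mitosis genes. The lists were written with earlier results of these data known. The club cell list holds Pon1, Aox3, Scgb1c1, Chad and Lypd2, the genes in which replicate 1 lay farthest above its group. Its mean is thus not independent of those genes. For 26 macrophage genes it was 7.67, against 8.18 and 8.06 in the others and 8.14 to 8.43 in control. In bulk RNA, fewer cells of a type and less RNA per cell cannot be told apart.

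Groups of genes were described by counts and medians beside those of all genes. Of 37 ciliated cell genes 0 passed in either fit. Their median difference was -0.23 with all arrays and -0.19 without replicate 1. Arrays did not overlap in 16 genes, all lower in Cebpa d/d, and in 21 without replicate 1, again all lower. Over all genes the shares on the lower side were 6.19% and 11.3%. Cfap126, a protein of the ciliary axoneme and basal body, was 9.15 to 9.16 in control and 8.41 to 8.92 in Cebpa d/d (-0.45 ± 0.13, adjusted p = 0.444). The tubule protein Tekt1 was 9.50 to 9.83 in control and 9.07 to 9.36 in Cebpa d/d (-0.37 ± 0.14, adjusted p = 0.741). Efcab10 differed by -0.35 ± 0.12 (adjusted p = 0.693) and Foxj1 by -0.07 ± 0.13 (adjusted p = 0.959). The list's mean level was 9.60 to 9.81 in control and 9.43 to 9.54 in Cebpa d/d at 72 hr. At 0 hr it was 8.90 to 9.42 in control and 8.61 to 8.83 in Cebpa d/d, so the groups were apart there as well. At 3 hr they overlapped, at 8.51 to 9.26 in control and 8.77 to 9.09 in Cebpa d/d.

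Among 29 genes of alveolar type 2 cells and surfactant, S100g was the 1 that passed, and the median was -0.15 with all arrays and -0.00 without replicate 1. Arrays did not overlap in 2 higher and 11 lower genes, and in 8 higher and 12 lower ones without replicate 1, beside the all-gene shares given above for each side. Lyz1 and Lyz2, which encode lysozymes, had differences of -2.18 ± 0.47 (adjusted p = 0.178) and -1.40 ± 0.32 (adjusted p = 0.203) and did not pass. Lyz1 was 10.43, 9.92 and 10.84 in control and 8.38, 8.48 and 7.80 in Cebpa d/d. Both passed without the array labelled control 0 hr replicate 1 (adjusted p = 0.00576 and 0.012), which enters only through the spread, and their sequences are alike. The surfactant lipid transporter Abca3 was 8.51, 8.64 and 8.72 in control and 8.14, 8.19 and 8.17 in Cebpa d/d (-0.46 ± 0.10, adjusted p = 0.178). Surfactant protein B, Sftpb, was 10.70 to 10.82 in control and 10.29 to 10.41 in Cebpa d/d (-0.40 ± 0.11, adjusted p = 0.4). Acoxl, a peroxisomal oxidase, had -0.68 ± 0.13 (adjusted p = 0.0868), and the fatty acid-binding protein Fabp5 had -1.40 ± 0.29 (adjusted p = 0.145). Abca3, Acoxl and Fabp5, like Lyz1 and Lyz2, passed with array weights (limma adjusted p from 0.00915 to 0.0212). Of 18 fits that each left out 1 array, Acoxl passed in 3, and Abca3 and Fabp5 in 1 each. Sftpb passed in none of these.

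Lcn2, a siderophore-binding protein of innate defence, came close to the threshold with all arrays. It was 8.82, 9.04 and 10.03 in control and 6.22, 7.74 and 6.48 in Cebpa d/d (-2.48 ± 0.45, adjusted p = 0.0601). Without replicate 1 its difference was -2.19 ± 0.49 (adjusted p = 0.316). Lcn2 passed with array weights (adjusted p = 0.00705) and without Cebpa d/d replicate 2 (-2.95, adjusted p = 0.0134). Replicate 2 was its Cebpa d/d array nearest to control, so the pass without it adds no support. Lcn2 also passed without either of 2 control arrays of earlier times (adjusted p = 0.0459 and 0.0423). Of 30 antimicrobial genes Chia1 was the 1 that passed. Neutrophil markers had 0 of 17 that passed and a median of -0.16 in both fits, and their mean level was 6.63 to 7.06 in control and 6.06 to 6.59 in Cebpa d/d. Lcn2 is on that list too, and the part of neutrophils in its difference was not tested. Cd177, a neutrophil surface protein, was 8.14, 9.55 and 9.25 in control and 6.89, 7.94 and 7.90 in Cebpa d/d (-1.40 ± 0.29, adjusted p = 0.145). With array weights it passed (limma adjusted p = 0.0382). It also passed without control replicate 1, its lowest control array (-1.82, adjusted p = 0.00665). This was the 1 pass in 18 fits that each left out 1 array (limma adjusted p up to 0.631). The array left out lay nearest to the other group, so the pass adds no support. Macrophage markers had 0 of 26 that passed, with a median of -0.21 that was -0.03 without replicate 1.

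**Figure D4:**
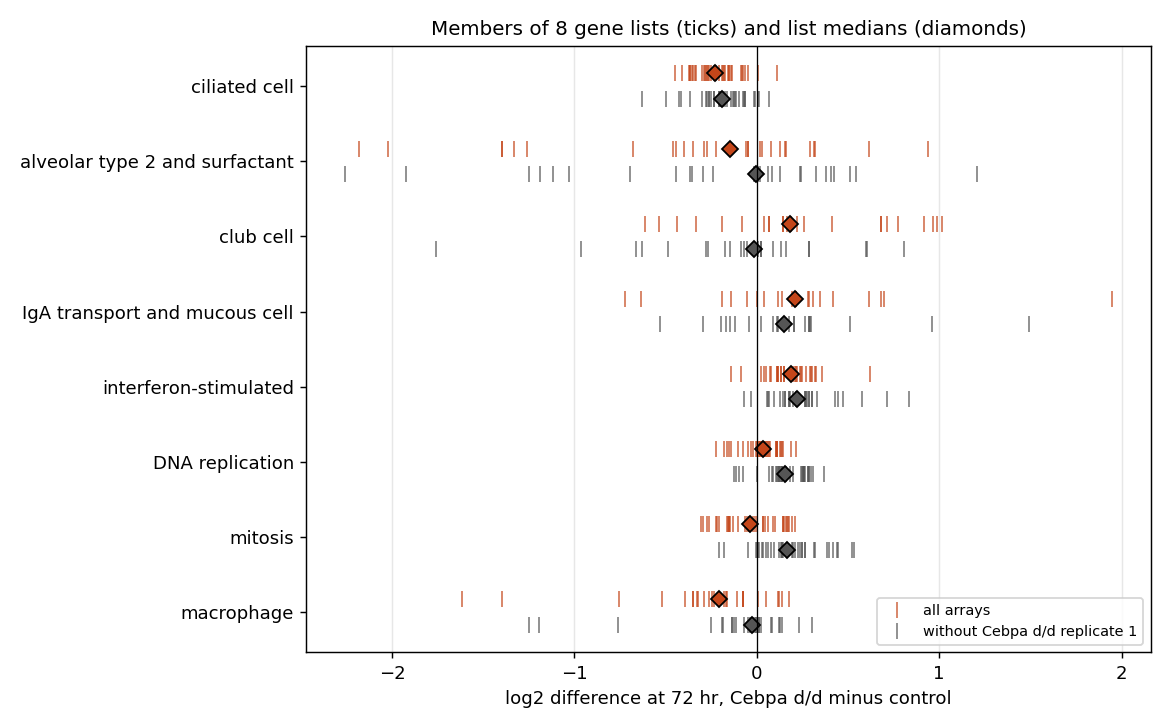
Log2 difference at 72 hr, Cebpa d/d minus control (horizontal axis), of each measured member of 8 gene lists (ticks) with the list's median (diamond). Red is with all arrays and grey without Cebpa d/d replicate 1, and without it the medians of the club cell list (0.18 to -0.02) and the mitosis list (-0.04 to 0.16) change side while that of the ciliated cell list stays below 0.

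Club cell genes had a median of 0.18 with all arrays and -0.02 without replicate 1, and xenobiotic metabolism genes of 0.01 and -0.09. Aox3 was the 1 of 25 and of 35 that passed, without replicate 1. Cyp2f2, the enzyme that activates naphthalene, was 12.55, 12.45 and 12.48 in control and 13.11, 12.41 and 12.62 in Cebpa d/d (0.22 ± 0.12, adjusted p = 0.826, and 0.02 ± 0.09 without replicate 1, adjusted p = 1). Scgb1a1 differed by -0.08 ± 0.08 (adjusted p = 0.908). Scgb3a2, a secretoglobin of the distal airway, was 11.91 to 12.01 in control and 12.29, 11.05 and 11.56 in Cebpa d/d, with a difference of -0.66 ± 0.12 without replicate 1 that just missed (adjusted p = 0.0725). Gabrp, a receptor subunit of club cells, lay the other way at 10.70 to 10.91 in control and 12.38, 11.43 and 11.43 in Cebpa d/d (0.91 ± 0.19, adjusted p = 0.145, and 0.60 ± 0.12 without replicate 1, adjusted p = 0.158). At 0 hr Gabrp was 12.06 to 12.40 in both genotypes.

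Genes of DNA replication and mitosis had 0 of 37 each that passed in either fit. The replication list had a median of 0.03 with all arrays and 0.15 without replicate 1, and its arrays did not overlap in 1 gene, higher, and in 13 without replicate 1, all higher. The mitosis list had -0.04 and 0.16, with 0 genes and then 7, all higher. Over all genes 8.89% lay apart on the higher side, and 13.9% without replicate 1. The replication factor Mcm10 was 5.90 to 6.01 in control and 5.98, 6.23 and 6.28 in Cebpa d/d (0.31 ± 0.13 without replicate 1, adjusted p = 1). Interferon-stimulated genes had medians of 0.19 and 0.22 in the 2 fits, 0 of 31 that passed, and arrays that did not overlap in 5 and 12 genes, all higher. The viral RNA sensor Ifih1 was 8.13 to 8.38 in control and 8.42 to 8.74 in Cebpa d/d (0.29 ± 0.21, adjusted p = 0.857). Oas1a, an antiviral enzyme, was 7.34 and 7.29 in replicates 2 and 3, above the control arrays, and 6.88 in replicate 1 (0.44 ± 0.20 without replicate 1, adjusted p = 1). Sox9, a factor of distal lung progenitors and of cartilage, was 6.88 to 7.05 in control and 7.36, 7.50 and 7.80 in Cebpa d/d (0.59 ± 0.13, adjusted p = 0.178). Krt4, a keratin of stratified epithelium, was 5.15 to 5.54 in control and 5.92 to 6.39 in Cebpa d/d (0.79 ± 0.20, adjusted p = 0.312). Krt20, on the same list of 21 keratin and basal cell genes, lay the other way, at 5.99, 7.13 and 6.99 in control and 5.81, 5.95 and 5.66 in Cebpa d/d (-0.90 ± 0.20, adjusted p = 0.178). With array weights it passed (limma adjusted p = 0.0252). It also passed without control replicate 1, its lowest control array (-1.25, adjusted p = 4.44e-05). This was the 1 pass in 18 fits that each left out 1 array (limma adjusted p up to 0.814). The array left out lay nearest to the other group, so the pass adds no support. The list's median was 0.07, and its groups were apart in 2 genes on each side.

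The spread borrowed from the other times bears on these counts. With only the 6 arrays of 72 hr in the fit, 6 genes passed, all lower: Spink5, S100g, Orm2, H3c15, Chia1 and Ccdc89. Pigr then had an adjusted p of 0.271. Without replicate 1 in that fit 10 passed, all lower, among them Spink5, S100g, Orm2, H3c15, Chia1, Aox3 and Mgst2, and Pigr missed (adjusted p = 0.0557).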

How the data were processed

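RNA of 18 mouse lung samples was hybridised to whole-transcript arrays, 3 per genotype and time. The authors deposited log2 values summarised by RMA, per the submitters' processing notes; version, build and filters are not given in the sources used here. Of 35557 probe sets, 21789 named 1 gene, 1621 several and 12147 none. For 999 genes with several probe sets the one with the highest mean was kept, leaving 19938 genes. Group means of all 18 arrays, without a block, were fitted with limma 3.58.1 in R 4.3.3, with Benjamini-Hochberg adjustment over all genes and a threshold of 0.05, and refitted without 72hr_KO1. The number of arrays limits the precision. Named genes were Cebpa, all that passed at 72 hr, from each list up to 4 members with the smallest unadjusted p, and anchors such as Scgb1a1 and Klk5. Exceptions are marked in the text. Members and lists were chosen with earlier results of these data known. Alternatives changed the samples, weights, scaling, filter, probe sets, variance model, block and threshold, or left out arrays. The fit was tested on simulated data.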

Additional observations from a re-analysis of the deposited data

Results flagged for a closer look

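In 5 genes the genotype difference at 72 hr differed from that at 0 hr by a limma interaction test, and in each the log2 difference had become more negative. Spink5, the LEKTI gene, changed by -3.37 against 0 hr (adjusted p = 2.57e-07) and by -3.74 against 3 hr (adjusted p = 4.99e-08), and held both calls without Cebpa d/d 72 hr replicate 1. Orm2 changed by -2.26 against 0 hr (adjusted p = 0.0273), Sectm1b by -2.07 (adjusted p = 0.0273), H3c15 by -1.47 (adjusted p = 0.0246) and Cd7 by -1.19 (adjusted p = 0.0396). Without Cebpa d/d 72 hr replicate 1 the adjusted p of these 4 was 0.0718 to 0.0879, and without control 0 hr replicate 1, whose Cebpa level goes against its label, it was 0.0583 to 0.0808. Spink5 passed without either array.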

How the results depend on the processing

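The count of genes that passed at 72 hr moved with several choices, given here with all arrays and then without 72hr_KO1. It was 6 and 10 when just the 72 hr arrays were fitted, 88 and 57 with array weights, 7 and 8 with genes below the median level left out, and 167 and 129 at an unadjusted p under 0.05 and at least 1.5-fold. Centring each array on its median gave 13 and 13. Leaving out 1 array at a time gave 12 to 20 over all 18 arrays. Without 72hr_KO1, leaving out each other 72 hr array or control 0 hr replicate 1 gave 5 to 23. The low end without 72hr_KO1 came without Cebpa d/d replicate 2 or 3 (5 genes each), and control replicate 2 gave 6 and control replicate 1 gave 10. The change in genotype difference against 0 hr passed in 19 genes, in 3 to 48 when 1 array was left out, in 8 without genes below the median level, and in 3 without both 72hr_KO1 and control 0 hr replicate 1. Its count was 48 without Cebpa d/d 0 hr replicate 3 and 3 without control 0 hr replicate 1 or 72hr_KO1. Counts of 4 came without control 0 hr replicate 3, control 72 hr replicate 1 or 2, Cebpa d/d 0 hr replicate 2 or Cebpa d/d 72 hr replicate 3. Cebpa d/d 0 hr replicate 1 gave 7, control 72 hr replicate 3 gave 9 and Cebpa d/d 72 hr replicate 2 gave 12. Against 3 hr, 1 or 2 genes passed when 1 array was left out, 1 without both named arrays, and limma gave 0 without genes below the median level, beside 1208 genes at an unadjusted p under 0.05 among all genes. Same-numbered arrays at 72 hr had deviations correlated at 0.199, 0.112 and 0.0734. Among arrays of unlike number, control replicate 3 and Cebpa d/d replicate 2 had 0.117, and the rest lay from -0.0331 to -0.231. The labels do not say that the numbers pair the samples, so the main fit had no block, and pairing was not tested. With a replicate block, the counts were 17 and 16 at 72 hr, 13 against 0 hr and 1 against 3 hr. Lcn2 then passed (adjusted p = 0.0185) and Bex2 without 72hr_KO1 did not (0.0823). Of the genes whose 72 hr difference is given, none reversed its direction under the alternatives run. Array weights brought 17 gene results past the threshold and took none below it, while the fit of 72 hr arrays alone took 17 below it. Cause was not tested in any of these. Signal near the array background limits what low genes can show, since a fold change is compressed there.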

Other observations

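Probe sets without a single gene name stood outside the gene counts. Of 1621 that match several genes, 3 passed without Cebpa d/d 72 hr replicate 1, all higher and all of the Sprr2a family, which encodes small proline-rich proteins of the cornified envelope of stratified epithelium. The probe set shared by Sprr2a2, Sprr2a3, Sprr2b and Sprr2a1 was 7.71, 7.80 and 8.37 in control and 7.49, 9.52 and 9.72 in Cebpa d/d arrays, a difference of 1.66 without replicate 1 (limma adjusted p = 0.0254) and of 0.95 with it (adjusted p = 0.944). The other pair of probe sets, shared by Sprr2a3 and Sprr2a1, held identical values and so count as 1 measurement, with a difference of 1.20 (adjusted p = 0.0453). Of 12147 probe sets with no gene name, 1 was higher (0.95, adjusted p = 0.0346) and 1 lower (-1.35, adjusted p = 0.0293) with all arrays, and neither passed without replicate 1.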
